A study of Mus musculus with 9 samples.

Results

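This account covers the 77 nuclear genes for mitochondrial ribosomal proteins, taken as every symbol in the series' gene count table that is made of Mrpl or Mrps, a number and at most a single letter (77 of 24062 symbols). RNA was taken from the whole gastrocnemius of mice 3 months old, all on the 129Sve/C57BL/6 mixed background. The genotypes, with 3 libraries each, were WT, hetL1002P (BubR1+/L1002P) and hetX753 (BubR1+/X753). The latter pair carry a single copy of an allele of BubR1, the spindle checkpoint protein encoded by Bub1b, that is linked to mosaic variegated aneuploidy; the labels give no treatment for any group. The labels do not say whether the 3 libraries of a genotype came from 3 animals, so each p-value reflects only how these samples vary, and part of that variation may be technical. The labels name no driver or cell type to which an allele is limited.

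The mitochondrial ribosome translates the few messenger RNAs of the mitochondrial genome, all of which encode subunits of the respiratory chain and the ATP synthase. Its ribosomal RNAs are made in the organelle, whereas all of its proteins are encoded in the nucleus, made in the cytosol and imported. Some of these proteins descend from bacterial ribosomal proteins and others are found only in mitochondria. Muscle fibres are rich in mitochondria and depend on this machinery for oxidative metabolism. Of the 77 genes, 50 encode proteins of the large subunit and 26 of the small subunit. Mrps18a and Mrps30 are counted with the large subunit, where their products sit despite their symbols. Mrps36 is in neither, because its product belongs to the 2-oxoglutarate dehydrogenase complex. By a grouping from general knowledge, 45 have a bacterial counterpart and 31 are mitochondrial only.

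The RefSeq promoter table for GRCm38.p6 held 68 of the 77 genes. The 250 bases before the annotated start are shown for 4 members whose window holds no annotated exon: Mrpl42, the member with the highest level per transcript length, Mrps22, the member with the smallest spread between libraries, and Mrpl34 and Mrpl52, short transcripts that were lower in all 3 hetX753 libraries than in all 3 WT libraries. Each is read on the gene's own strand from 5′ to 3′, ending at the base before the start. Capitals mark any match, on either strand, to the letters CCGGAAG (ETS factors, the family of GABP), GCGCATG (NRF1), ATGGCGG (YY1), GGGCGG (Sp1), CCAAT or TATAAA.
Mrpl42 (chr10:95501950-95502199, minus strand, GRCm38.p6): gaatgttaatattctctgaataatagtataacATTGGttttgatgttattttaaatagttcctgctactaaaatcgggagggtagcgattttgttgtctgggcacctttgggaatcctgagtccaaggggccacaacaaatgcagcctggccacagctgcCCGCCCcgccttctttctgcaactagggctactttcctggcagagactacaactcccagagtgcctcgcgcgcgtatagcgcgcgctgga
Mrps22 (chr9:98601680-98601929, minus strand, GRCm38.p6): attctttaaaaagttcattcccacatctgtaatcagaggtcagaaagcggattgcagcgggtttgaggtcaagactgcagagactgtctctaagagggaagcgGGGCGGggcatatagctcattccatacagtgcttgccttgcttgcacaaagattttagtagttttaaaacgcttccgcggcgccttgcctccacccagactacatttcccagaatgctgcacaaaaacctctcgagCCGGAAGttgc
Mrpl34 (chr8:71464676-71464925, plus strand, GRCm38.p6): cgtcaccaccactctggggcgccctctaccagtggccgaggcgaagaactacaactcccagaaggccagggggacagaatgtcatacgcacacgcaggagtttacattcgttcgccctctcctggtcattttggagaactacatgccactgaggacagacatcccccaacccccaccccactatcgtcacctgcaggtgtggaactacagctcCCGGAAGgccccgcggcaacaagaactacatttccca
Mrpl52 (chr14:54426659-54426908, plus strand, GRCm38.p6): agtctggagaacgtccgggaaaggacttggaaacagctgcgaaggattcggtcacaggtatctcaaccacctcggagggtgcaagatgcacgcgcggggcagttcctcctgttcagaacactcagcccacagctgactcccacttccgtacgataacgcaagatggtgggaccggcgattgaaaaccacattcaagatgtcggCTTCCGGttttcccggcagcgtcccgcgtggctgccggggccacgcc
Mrpl34, Mrps22 and Mrpl52 held the ETS letters, Mrpl42 and Mrps22 the Sp1 letters, and Mrpl42 CCAAT in reverse. Counting a gene with a match in any of its windows, the ETS letters were found in 17 of the 68 members (25%), against 7.83% of all 27025 genes in the promoter table and 15.1% of the 9777 tested here. The NRF1 letters were in 8 members (11.8%, against 3.68% and 6.55%). The Sp1 letters were in 33 members (48.5%, against 35.4% and 63.9%) and CCAAT in 25 (36.8%, against 37.5% and 39.9%). TATAAA was in 5 (7.35%, against 14.3% and 8.25%) and the YY1 letters in 1 (1.47%, against 2.58% and 4.44%). No searched motif contains another, but the NRF1 letters end in the bases with which the YY1 letters begin. A match describes the letters of a window and is not evidence of binding, and the annotated start can differ from the start used in muscle.

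Library totals ran from 19768149 to 33977252 counts, and 12989 genes passed the filter on low counts. Bub1b had 11 to 21 counts in the WT, 2 to 10 in the hetL1002P and 5 to 8 in the hetX753 libraries. The 12 myofibre markers, among them Acta1, Ckm and Myh4, were all present and summed to 206800 to 222700 CPM (counts scaled to the TMM-adjusted library total) in WT, 183700 to 205200 in hetL1002P and 171800 to 188600 in hetX753. Fibroblast markers (8 of 8 tested) summed to 815 to 969, 519 to 1255 and 574 to 745 CPM in the same order, and macrophage markers (7 of 7 tested) to 53.4 to 87.9, 46.4 to 109 and 52.6 to 60.7 CPM. The haemoglobin genes Hba-a1, Hba-a2, Hbb-bs and Hbb-bt are listed at 0 in all 9 libraries. WT 3 and hetL1002P 3 stood apart from the other 7 libraries on the first principal component of all genes (-47.5 and -32.5, against -9.52 to 28.9). They also had the most negative relation of level to transcript length, with slopes over all genes of -0.27 and -0.121 log2 per doubling of length against -0.0554 to 0.163 in the others. The mitochondrial ribosomal protein genes were highest in these same libraries, so the results for the group are also given without them. WT 3 and hetL1002P 3 each had the highest myofibre sum (222700 and 205200 CPM) and the lowest fibroblast sum (815 and 519 CPM) of their genotype. The macrophage sum was the lowest of its genotype in hetL1002P 3 (46.4 CPM) but not in WT 3 (70.6 CPM). The part of tissue content in the members' levels was not tested. In whole tissue, a lower level cannot be divided into fewer cells of a type and less RNA per cell.

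All 77 members were expressed: each had reads in all 9 libraries, with 202 counts the lowest value for a member in a library and 7296 the highest, and all 77 passed the filter. To compare genes, levels were divided by the median length of the gene's GENCODE M21 basic protein-coding transcripts. The median member stood at 33.3 CPM per kb over the 9 libraries, and the middle 50% of members lay between 17 and 59.3. The order ran 103-fold from Mrpl19 to Mrpl42. The large subunit had a median of 34.6 and the small subunit of 26.5 CPM per kb, and the ranges of the subunits overlapped widely (3.14 to 323.6 and 4.64 to 191).

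Mrpl42, a mitochondria-specific protein of the large subunit, had the highest level at 323.6 ± 67.4 CPM per kb (SD, n = 9 libraries). It was followed by Mrps21 at 191 ± 48, Mrpl33 at 145.7 ± 34.7 and Mrpl30 at 145.3 ± 22.9. The last pair did not differ beyond their spread, and Mrps21 overlapped both within its SD. The lowest were Mrpl19 at 3.14 ± 0.272, Mrpl47 at 3.84 ± 0.961, Mrps35 at 4.64 ± 0.852 and Mrps25 at 4.84 ± 1.03 CPM per kb. Neighbours in this order did not differ beyond their spread. For the highest and the lowest members alike, this spread holds shifts between libraries that the members share. An overlap therefore does not say how genes compare within a library. Each of the lowest 4 has 1 basic coding transcript in the annotation and a long transcript model (5000, 3364, 4162 and 6073 bases, against a member median of 1223). A shorter form in muscle would raise their level per length, and this was not tested. For Mrpl42 the level runs from 321 to 470 CPM per kb with the longest and shortest of its 3 transcripts.

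**Figure D1:**
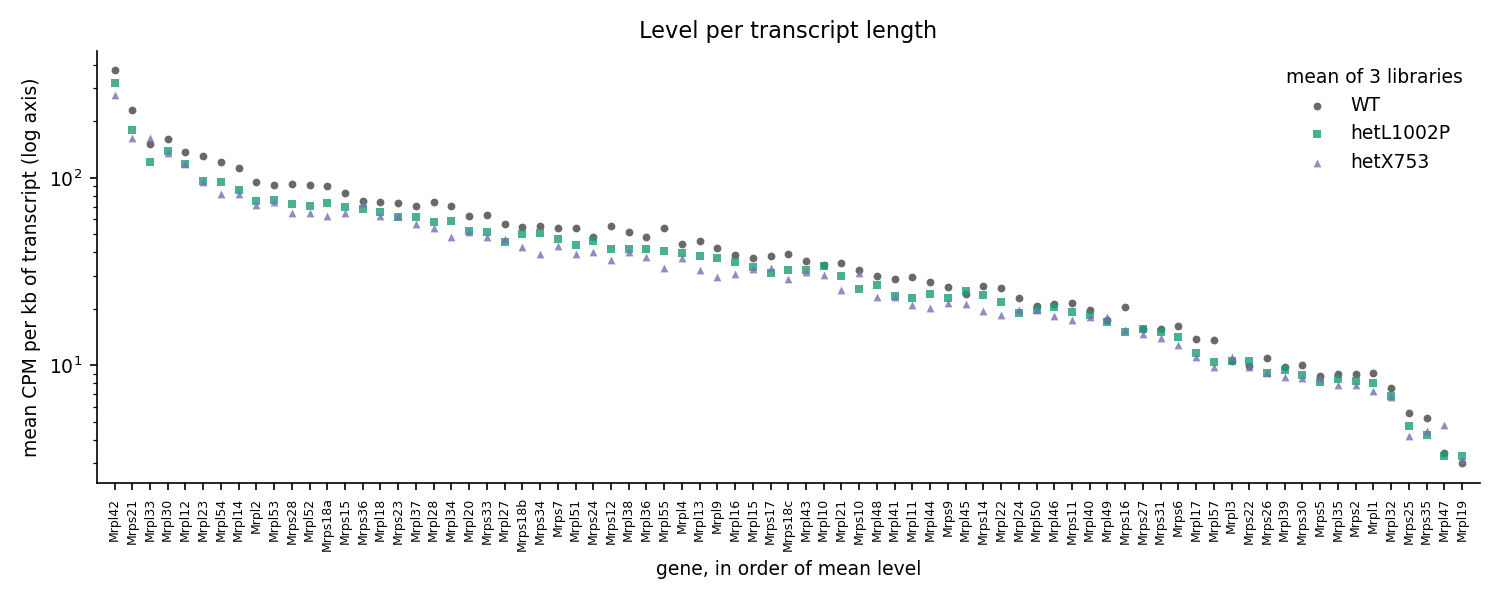
Mean level of each of the 77 genes in CPM per kb of transcript (log axis), in order of the mean over 9 libraries, with a marker for the mean of the 3 libraries of each genotype. Mrpl42 is highest at 323.6 and Mrpl19 lowest at 3.14; the WT marker is the uppermost for most genes, and Mrpl47 near the right end has its hetX753 marker uppermost.

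The members moved together from library to library, more by library than by genotype. The 77 genes summed to 3704, 3851 and 5017 CPM in WT 1, 2 and 3, to 3240, 2935 and 4550 CPM in the hetL1002P libraries and to 3566, 3433 and 3039 CPM in the hetX753 libraries. The sum was highest in WT 3 and hetL1002P 3, and the lowest value was that of hetL1002P 2, so hetL1002P overlapped both other genotypes. All 3 hetX753 sums lay below all 3 WT sums, an order that 15.8% of all genes had when taken singly. After each gene's mean log2 level over the 9 libraries was subtracted, the median member stood at 0.02, 0.06 and 0.44 in the WT libraries, at -0.17, -0.31 and 0.30 for hetL1002P and at -0.04, -0.09 and -0.24 for hetX753. Within WT, replicate 3 was the highest library for 76 of 77 members, the exception being Mrps22; over all genes tested it was highest for 38.8%. Within hetL1002P, replicate 3 was the highest for 76 of 77, the exception being Mrps5, against 40.9% of all genes. Within hetX753, replicates 1, 2 and 3 were the highest for 44, 24 and 9 members, against 33.3%, 32.4% and 34.3% of all genes.

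**Figure D2:**
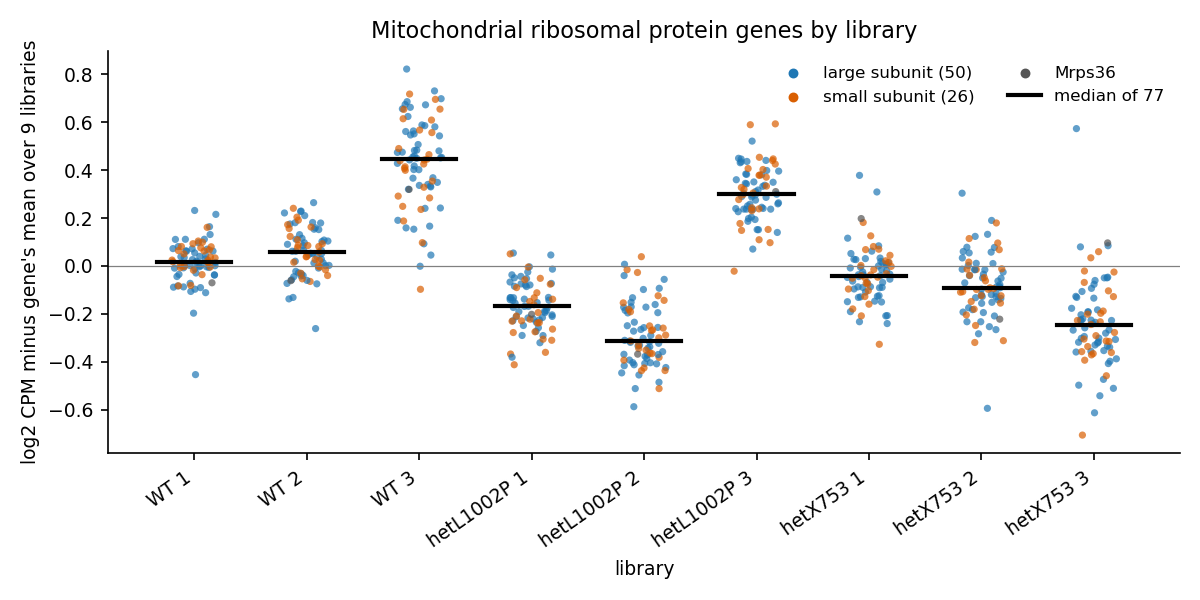
Log2 level of each of the 77 genes minus the gene's own mean over the 9 libraries, by library, with a dot per gene coloured by subunit and a bar at the median. The medians of WT 3 (0.44) and hetL1002P 3 (0.30) lie above those of the other 7 libraries, which run from -0.31 to 0.06.

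Large and small subunit genes kept nearly the same proportion in every library. The summed CPM of large subunit genes over that of small subunit genes was 2.47, 2.48 and 2.50 for WT, 2.561, 2.461 and 2.448 for hetL1002P and 2.46, 2.53 and 2.47 for hetX753. The lowest and the highest of these ratios were both from hetL1002P libraries. The sum of the members thus differed between libraries while the proportion of the subunits varied between 2.448 and 2.561.

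**Figure D3:**
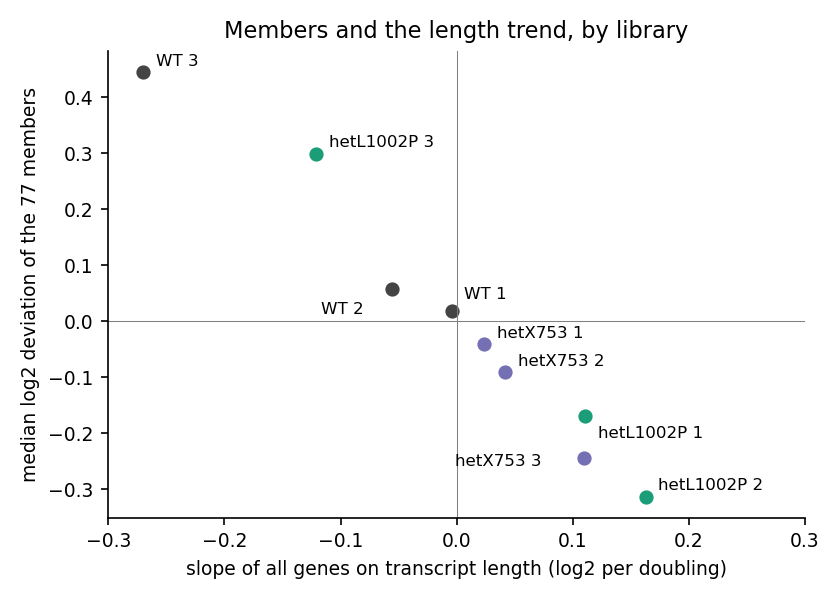
For each of the 9 libraries, the slope of all genes' log2 levels on transcript length (log2 per doubling of length, x axis) and the median deviation of the 77 genes (y axis), coloured by genotype. WT 3 and hetL1002P 3 lie at the upper left with slopes of -0.27 and -0.121, and hetL1002P 2 at the lower right with 0.163.

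Members have short transcripts, with a median of 1223 bases (from 440 for Mrpl52 to 6073 for Mrps25) against 2699 for all genes tested. Across the 9 libraries, those with the more negative slope on length had the higher members, apart from hetL1002P 1 and hetX753 3, whose slopes were nearly equal (0.111 and 0.11). The length trend is therefore a value that moves with the members' level. Within the members, the excess of WT 3 over WT 1 and 2 had a Pearson correlation of -0.29 with log2 length (77 genes, which share libraries and are not independent), and that of hetL1002P 3 over hetL1002P 1 and 2 of -0.32. The same correlations over 12916 genes were -0.47 and -0.44. The median excess was 0.41 and 0.55 log2 for the members, against -0.02 and -0.03 for all genes.

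The comparison of hetX753 with WT asks how the genes stand in carriers of the X753 allele. No member passed the test (edgeR quasi-likelihood test, adjusted p under 0.05), whereas 0.508% of the 12989 genes tested did (66 genes). The members nevertheless lay to the lower side: 72 of 77 had a log2 fold change below 0, against 49.6% of all genes, with a median of -0.31 against 0.00. At an unadjusted p under 0.05 there were 22 lower members and 1 higher, 29.9% in all, against 20.9% of all genes in either direction and 9.69% lower. In 41 of 77 members all 3 hetX753 libraries lay below all 3 WT libraries, as did 15.8% of all genes, and no member had all 3 above, as did 16.7%. DESeq2 and limma-voom also called 0 members, while calling 640 and 55 genes.

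By subunit and origin of the proteins, the medians in hetX753 against WT were as follows, with no test of a difference. The 50 large subunit genes had a median of -0.32 with 45 below 0, and the 26 small subunit genes a median of -0.31 with 26 below 0. An unadjusted p under 0.05 was found in 19 of the large subunit genes (38%) and 4 of the small subunit genes (15.4%). The share over all genes was 20.9% in either direction and 9.69% lower. Of the large and small subunit genes found, 18 and 4 were lower. Genes with a bacterial counterpart had a median of -0.31 and mitochondria-specific genes one of -0.33. The 38 members with transcripts under the members' median length had a median of -0.35, and the other 39 one of -0.23. With the length and GC trend removed, this order turned, with medians of -0.10 and -0.18. Without WT 3 the median of the 77 was -0.15, with 66 below 0 and 0 called (0.0531% of all genes). Without both WT 3 and hetL1002P 3 it was -0.15 with 66 below 0 and 1 called, Mrpl47 (2.58% of all genes). It was also -0.15 (62 below 0) after each library's trend with transcript length and GC content was removed, and -0.18 (65 below 0) with library totals as the only scaling, under which the median of all genes was 0.12. The part of the length trend and of WT 3 in the lower level was otherwise not tested.

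**Figure D4:**
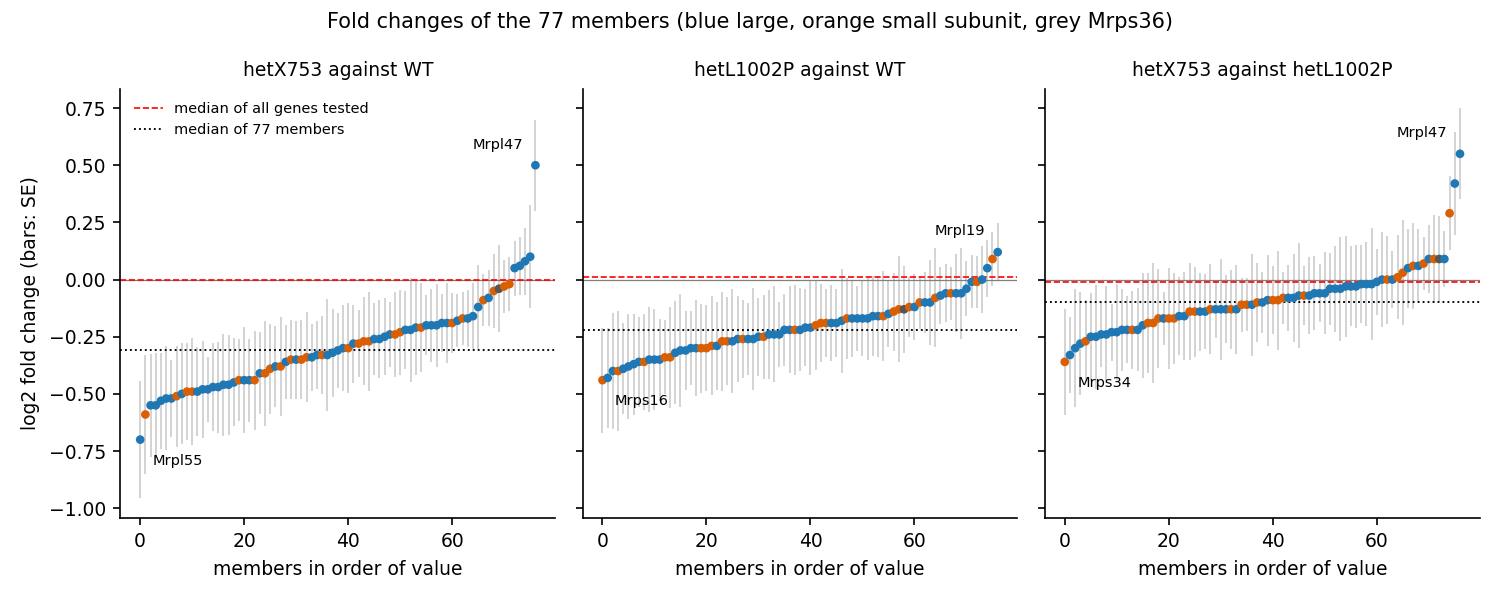
Log2 fold changes of the 77 genes in the 3 comparisons, each sorted by value, with bars of 1 standard error; the dotted line is the members' median and the dashed red line that of all genes tested. Most points lie below 0 in each panel (72, 74 and 64 of 77), and Mrpl47 is highest in both panels that involve hetX753; without hetL1002P 3 the third panel turns, with 14 of 77 below 0.

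The 8 members with the smallest p in this comparison, none past the threshold, were Mrpl21, Mrpl9, Mrpl55, Mrps18a, Mrpl52, Mrpl47, Mrps14 and Mrpl44. Mrpl21, the bL21 protein of the large subunit (chr19:3282997-3292837, plus strand, GRCm38.p6), had 30.1, 32.0 and 40.0 CPM in WT, 27.8, 25.02 and 33.8 CPM in hetL1002P, and 24.8, 24.4 and 23.8 CPM in hetX753. All 3 hetX753 libraries lay below the 6 others, and the spread within hetX753 was the smaller. The log2 fold change against WT was -0.48 ± 0.143 (SE; 1.4-fold lower; edgeR adjusted p = 0.134), and without hetL1002P 3, in a fit that called 5.07% of all genes, the adjusted p was 0.048. Exons of Mrpl21 overlap those of Ighmbp2 on the other strand, whose level was 5.56 to 8.13 CPM. The kit does not mark strand, so reads in the overlap cannot be assigned to either gene.

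Mrpl9, the bL9 protein of the large subunit (chr3:94443154-94448708, plus strand), had 60.1, 62.3 and 85.4 CPM in WT, 56.3, 54.4 and 71.6 CPM in hetL1002P, and 51.1, 52.5 and 41.3 CPM in hetX753. The hetX753 values were again the lowest 3 of the 9. Its log2 fold change against WT was -0.52 ± 0.167 (1.43-fold lower; edgeR adjusted p = 0.151). Mrpl16, the uL16 protein near the catalytic centre, was the only other member with all 3 hetX753 libraries below the 6 others, at 36.8, 34.7 and 34.9 CPM against 38.2 to 54.9. It was named for that order after its values were seen. Such an order was found in 3 of 77 members and in 3.65% of all genes.

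Mrpl55, a mitochondria-specific protein of the large subunit, had the lowest log2 fold change at -0.70 ± 0.257 (1.63-fold lower; edgeR adjusted p = 0.18). Its levels were 36.2, 31.6 and 54.4 CPM in WT, 31.8, 21.6 and 39.1 CPM in hetL1002P, and 31.5, 20.4 and 23.2 CPM in hetX753. The highest hetX753 value lay just under the lowest WT value. Mrps18a, Mrpl52, Mrps14 and Mrpl44 had log2 fold changes of -0.53, -0.49, -0.44 and -0.47 with edgeR adjusted p from 0.2 to 0.208. For these 4 too every hetX753 library lay below every WT library. Mrps14, the uS14 protein of the small subunit, had 48.3, 49.7 and 52.6 CPM in WT, 36.6, 38.8 and 58.8 CPM in hetL1002P, and 43.2, 34.8 and 32.9 CPM in hetX753. For this gene WT 3 hardly differed from WT 1 and 2, while hetL1002P 3 was the highest of all libraries.

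Mrpl47 went the other way. It encodes the uL29 protein, which lies at the rim of the exit tunnel of the large subunit, and is annotated at chr3:32727497-32736755 on the minus strand. Its levels were 9.17, 10.5 and 14.8 CPM in WT, 10.3, 9.67 and 13.2 CPM in hetL1002P, and 15.6, 14.3 and 18.7 CPM in hetX753. The hetX753 libraries were above all hetL1002P libraries, and overlapped WT only in that WT 3 exceeded hetX753 2. Its log2 fold change was 0.50 ± 0.198 against WT (1.41-fold higher; edgeR adjusted p = 0.201) and 0.55 ± 0.198 against hetL1002P (1.47-fold higher; adjusted p = 0.466), so neither passed. Without WT 3 and hetL1002P 3 the log2 fold change against WT was 0.73 with an edgeR adjusted p of 0.037, in a fit that called 2.58% of all genes.

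Relative to the other members Mrpl47 stood further apart. It held 0.436%, 0.417% and 0.615% of all members' CPM in hetX753, against 0.248% to 0.296% in WT and 0.290% to 0.330% in hetL1002P. Measured in this way, 8 members had all 3 hetX753 libraries above the 6 others, as did 4.27% of all genes taken relative to the members' sum. These were Mrpl15, Mrpl33, Mrpl40, Mrpl43, Mrpl47, Mrpl49, Mrps10 and Mrps23, and the 4 with all 3 below (1.32% of all genes) were Mrpl9, Mrpl42, Mrpl44 and Mrps18a. The members' sum differs between genotypes, so these shares describe proportions within the group and not levels. For other genes the ratio also carries the shifts of that sum between libraries. The percentages of all genes are therefore no like background for the members. Exons of Mrpl47 overlap those of Ndufb5 and Actl6a on the other strand. Ndufb5, a complex I subunit, had 276, 297 and 435 CPM in WT, 236, 211 and 367 CPM in hetL1002P, and 307, 258 and 294 CPM in hetX753. It was thus far more abundant than Mrpl47. Its log2 fold change in hetX753 was -0.23 against WT and 0.08 against hetL1002P. Actl6a was at -0.20 and -0.10 in the same order. The part of reads from these genes in the Mrpl47 counts was not tested.

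**Figure D5:**
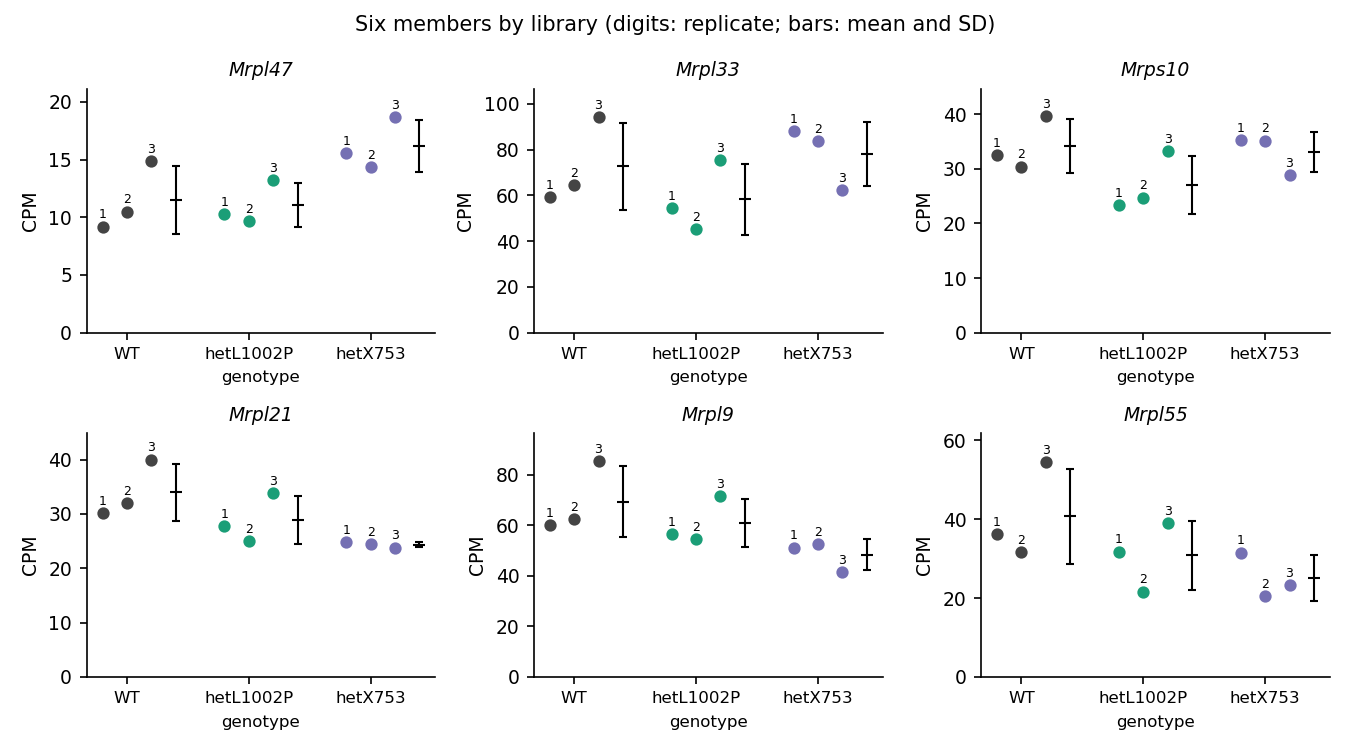
Levels in CPM of 6 members, by genotype, with a dot per library marked by its replicate number and the mean and SD of 3 libraries beside it; each vertical axis starts at 0. Mrpl47 is higher in all 3 hetX753 libraries (14.3 to 18.7) than in all hetL1002P libraries (9.67 to 13.2), Mrpl21 and Mrpl9 have their lowest 3 values in hetX753, and replicate 3 is the highest of WT and of hetL1002P in every panel.

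In addition to Mrpl47, 4 members had a log2 fold change above 0 in hetX753 against WT: Mrpl33 (0.10), Mrpl3 (0.08), Mrpl19 (0.06) and Mrpl49 (0.05). None of these values exceeded its standard error. Mrps36, the member whose product is no ribosomal protein, was at -0.04 ± 0.19 against WT in hetX753 and -0.13 ± 0.19 in hetL1002P. The 3 genes for S18 proteins were all lower in hetX753 than in WT by estimate, with log2 fold changes of -0.53 for Mrps18a, -0.35 for Mrps18b and -0.44 for Mrps18c, and edgeR adjusted p from 0.2 to 0.27. Mrps30, the other large subunit gene with a small subunit symbol, was at -0.22 ± 0.227.

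The comparison of hetL1002P with WT asks the same for the other allele, and it shares the WT libraries with the comparison above. No member and no gene passed edgeR's test (0% of 12989), and no member reached an unadjusted p under 0.05, against 7.96% of all genes. DESeq2 called 5 genes and limma-voom 2, with 0 members in each. Yet 74 of 77 members had a log2 fold change below 0, against 48.1% of all genes, with a median of -0.22 against 0.01. No member had all 3 hetL1002P libraries below all 3 WT libraries, as did 3.77% of all genes, or above, as did 5.67%. The median member was higher in hetL1002P 3 (0.30) than in WT 1 (0.02) or WT 2 (0.06), and lower in hetL1002P 1 and 2 (-0.17 and -0.31).

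The estimate depended on which libraries were in the fit. The median was -0.07 (60 below 0) without WT 3, -0.42 (75 below 0) without hetL1002P 3 and -0.29 (74 below 0) without both, with 0 members called by edgeR in each (0%, 0.00758% and 0.0152% of all genes). It was -0.08 (58 below 0) after removal of the length and GC trend and -0.13 (65 below 0) with library totals alone, where the median of all genes was 0.10. The large and small subunit genes had medians of -0.22 and -0.21. Same-numbered WT and hetL1002P libraries deviated together, and a fit of these 2 genotypes with the replicate number as a block called 10 members, all lower, where it called 5.01% of all genes in either direction and 2.37% lower. With the length and GC trend removed as well, the blocked fit called 0 members. Without the pair numbered 1, 2 or 3 it called 0, 0 and 1.

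The 8 members with the smallest p here were Mrps10, Mrpl23, Mrpl57, Mrpl2, Mrps16, Mrpl38, Mrpl52 and Mrpl27, each with an edgeR adjusted p of 0.58. Mrps10, the uS10 protein of the small subunit, had 32.5, 30.4 and 39.7 CPM in WT, 23.3, 24.7 and 33.2 CPM in hetL1002P, and 35.2, 35.2 and 28.9 CPM in hetX753. The hetL1002P libraries 1 and 2 were the lowest of the 9, while hetX753 overlapped WT. Its log2 fold change was -0.34 ± 0.161 in hetL1002P and -0.05 ± 0.161 in hetX753, each against WT. Mrpl23, the uL23 protein at the exit tunnel, had 75.7, 78.1 and 116.9 CPM in WT, 58.9, 52.9 and 88.7 CPM in hetL1002P, and 74.7, 63.5 and 57.8 CPM in hetX753, with log2 fold changes of -0.43 ± 0.219 and -0.46 ± 0.219. For Mrpl57, Mrpl2, Mrps16, Mrpl38, Mrpl52 and Mrpl27 the log2 fold changes against WT lay between -0.44 and -0.30 for hetL1002P, and between -0.49 and -0.26 for hetX753. The 3 members above 0 in hetL1002P were Mrpl19 (0.12), Mrps22 (0.09) and Mrpl45 (0.05).

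Some members hardly varied. Mrps22, a mitochondria-specific protein of the small subunit, had the smallest within-genotype SD of log2 CPM at 0.0849, with 12.4, 11.9 and 11.2 CPM in WT, 12.4, 12.3 and 13.0 CPM in hetL1002P, and 10.6, 11.9 and 12.5 CPM in hetX753. It was the member that was not at its highest in WT 3 among the WT libraries. The median member had an SD of 0.255, against 0.236 for all genes. The widest were Mrps12 (0.399), Mrpl55 (0.39), Mrpl41 (0.361) and Mrpl14 (0.345). Mrps12, the uS12 protein of the decoding centre, had 36.8, 40.6 and 55.6 CPM in WT, 28.3, 25.6 and 47.0 CPM in hetL1002P, and 36.0, 31.0 and 21.1 CPM in hetX753. All 3 hetX753 libraries lay below the WT libraries, hetX753 1 only just, and the hetL1002P libraries overlapped both genotypes.

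The carriers were also compared with each other. No member passed edgeR's test (0.115% of all genes, or 15, did), and 1 member, Mrpl47, had an unadjusted p under 0.05 (8.24% of all genes). DESeq2 and limma-voom called 0 members of 138 and 16 genes. In hetX753 against hetL1002P, 64 of 77 members had a log2 fold change below 0, against 52.6% of all genes, with a median of -0.10 against -0.01. This direction rested on hetL1002P 3: without it the median was 0.10 with 14 of 77 below 0 and 0 called (0.144% of all genes). The direction of the group's median thus turned with hetL1002P 3. The 8 members named next kept their sign when any single library was left out, but Mrps14 and Mrps34 came as near 0 as -0.03 and -0.04. These 8 were chosen by the smallest p in this same comparison, so their sign is no separate support.

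The 8 smallest p belonged to Mrpl47, Mrpl9, Mrpl33, Mrpl45, Mrps10, Mrpl21, Mrps34 and Mrps14. All 3 hetX753 libraries were above all 3 hetL1002P libraries in 1 member (Mrpl47; 7.44% of all genes) and below in 3 (Mrpl9, Mrpl16 and Mrpl21; 6.98%). Mrpl33, the bL33 protein of the large subunit, had 59.2, 64.4 and 94.2 CPM in WT, 54.3, 45.2 and 75.3 CPM in hetL1002P, and 88.2, 83.7 and 62.1 CPM in hetX753. Its log2 fold change between the carriers was 0.42 ± 0.226 (edgeR adjusted p = 0.697), and its levels overlapped in hetL1002P 3 and hetX753 3. A predicted gene, Gm43809, overlaps it on the same strand. Mrps34, a mitochondria-specific protein of the small subunit, had the lowest value at -0.36 ± 0.233, with 40.6, 45.5 and 65.9 CPM in WT, 38.5, 35.8 and 64.8 CPM in hetL1002P, and 34.3, 36.2 and 37.5 CPM in hetX753. WT 3 and hetL1002P 3 were the high libraries. The others were at -0.33 (Mrpl9), -0.23 (Mrpl45), 0.29 (Mrps10), -0.24 (Mrpl21) and -0.27 (Mrps14), with edgeR adjusted p from 0.678 to 0.773.

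For comparison, 2 other groups with short transcripts (medians of 777 and 810 bases) are given, with no test of a difference from the members. Of 77 cytosolic ribosomal protein genes tested (81 in the table), 76 were below 0 in hetX753 against WT with a median of -0.35, and 75 in hetL1002P against WT with a median of -0.32. Cytosolic ribosomal protein genes have many processed copies in the genome, so their counts are uncertain. Of 36 complex I subunit genes tested (37 in the table), 36 and 34 were below 0, with medians of -0.40 and -0.28. Between the carriers (hetX753 against hetL1002P) the medians were -0.03 and -0.12, from 46 and 32 genes below 0 in the same order. The edgeR fit of all 9 libraries called none of either group. The fit of WT and hetL1002P alone with the replicate number as a block called 27 of the 77 and 12 of the 36. That blocked fit called 5.01% of all genes in either direction and 2.37% lower. With the length and GC trend removed, the medians in hetX753 against WT were -0.10 and -0.18. By library both groups were highest in WT 3 (median deviations of 0.48 and 0.59) and stood at 0.20 and 0.34 in hetL1002P 3.

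The rest of the mitochondrial translation pathway was followed in 6 lists, and the edgeR fit of all 9 libraries called none of their genes in any comparison. The 6 mitochondrial ribosomal proteins with other symbols (Dap3, Ptcd3, Chchd1, Aurkaip1, Gadd45gip1 and Ict1) were all below 0 in hetX753 against WT, with a median of -0.20. Gadd45gip1, whose product is a large subunit protein, had 41.8, 33.7 and 39.8 CPM in WT, 36.5, 26.1 and 58.3 CPM in hetL1002P, and 29.3, 16.4 and 16.8 CPM in hetX753. Its hetX753 libraries were below those of WT, as in 15.8% of all genes, with a log2 fold change of -0.88 ± 0.291 (edgeR adjusted p = 0.157).

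Among 29 tested genes for ribosome assembly and rRNA modification, 23 were below 0 in hetX753 and 20 in hetL1002P, each against WT, with medians of -0.18 and -0.08. Rbfa, which binds the small subunit during its maturation, had 36.0, 38.2 and 51.1 CPM in WT, 31.0, 29.0 and 40.9 CPM in hetL1002P, and 26.6, 27.0 and 18.4 CPM in hetX753. Its 3 hetX753 values were the lowest of the 9, an order found in 3.65% of all genes. The log2 fold change of Rbfa against WT was -0.79 ± 0.196 (edgeR adjusted p = 0.106). Rpusd3, a pseudouridine synthase, Ftsj2, an rRNA methyltransferase, and Ddx28, an RNA helicase, were at -0.58, -0.52 and -0.35.

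The 14 translation factors tested had medians of -0.11 in hetX753 and -0.02 in hetL1002P, with 11 and 8 below 0. The elongation factor gene Gfm1 had 106.9, 103.8 and 108.1 CPM in WT, 106.4, 100.8 and 110.8 CPM in hetL1002P, and 87.7, 82.4 and 91.1 CPM in hetX753. All 3 hetX753 libraries were below the 6 others, an order found in 3.65% of all genes. Neither WT 3 nor hetL1002P 3 stood apart for Gfm1. Its log2 fold change against WT was -0.29 ± 0.095 (edgeR adjusted p = 0.158). Tufm, also an elongation factor gene, was at -0.41 ± 0.152, while Mtrf1l, a release factor, and Guf1, a translation GTPase, were at -0.53 and -0.33.

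The 17 mitochondrial aminoacyl-tRNA synthetases, which charge the organelle's tRNAs, had medians of -0.06 in hetX753 and 0.05 in hetL1002P, with 11 and 8 below 0. The 4 with the smallest p were Vars2 (-0.34), Tars2 (-0.30), Ears2 (-0.33) and Wars2 (0.28). The 11 genes tested for transcription and replication of mitochondrial DNA had medians of -0.10 and -0.08, with 7 below 0 in each. In hetX753 the RNA-stabilising factor Slirp was at -0.51 and the single-strand binding protein Ssbp1 at -0.43, while the polymerases Polg and Polrmt were at 0.24 and 0.15.

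The 11 nuclear regulators of mitochondrial genes had medians of the opposite sign. No values with the length and GC trend removed are given for this list, so the part of that trend was not tested. In hetX753 against WT 2 were below 0 and the median was 0.30, and in hetL1002P 3 were below 0 and the median was 0.19. Gabpa, the DNA-binding subunit of GABP, had 19.2, 15.0 and 13.2 CPM in WT, 22.6, 24.1 and 17.1 CPM in hetL1002P, and 18.9, 23.8 and 24.9 CPM in hetX753. WT 3 and hetL1002P 3 were the lowest of their genotypes for it, and its log2 fold change was 0.51 ± 0.181 in hetX753 (edgeR adjusted p = 0.173). Gabpb2, Perm1 and Ppargc1b, a partner of Gabpa and 2 coactivators of oxidative metabolism, were at 0.45, 0.47 and 0.79. For Gabpb2 and Ppargc1b too, WT 3 and hetL1002P 3 were the lowest of their genotypes. For Perm1, hetL1002P 3 was the highest of its genotype (327.7 CPM, against 264.6 and 216.1). Of the hetX753 libraries, replicate 3 was high for Ppargc1b (12.6 CPM, against 5.43 and 5.53).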

How the data were processed

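The deposited table holds raw read counts, 1 row for each gene symbol and 1 column for each of 9 libraries. Tools listed in the submitters' processing notes are Bowtie2 2.2.6, TopHat2 2.0.14, Subread and featureCounts 1.4.6, and the build is mm10; their roles, the annotation and the strand setting are not given there. Per the labels' protocols, libraries were made with TruSeq v2, which does not mark strand. The counts were tested with edgeR (version 4.0.16, R 4.3.3). After filterByExpr left 12989 genes, the steps were TMM scaling, a robust quasi-likelihood fit of all 9 libraries on genotype (6 residual degrees of freedom), and Benjamini-Hochberg adjustment across the whole table, with calls at an adjusted p under 0.05. This test was also run on simulated counts drawn gene by gene, without shifts that the genes of a library share. Those counts therefore do not show how the test behaves under such shifts. Standard errors are the log2 fold change over the square root of F. CPM are relative to TMM-scaled totals, and log2 CPM add a prior count of 2. Lengths and GC come from GENCODE M21, coordinates and promoters from RefSeq GRCm38.p6; the trend removed was a spline with 4 degrees of freedom each on length and GC per library.

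Samples were grouped by title. Library totals were 19768149 to 33977252 counts. Libraries of the same genotype always differed by more than counting error (chi-square over degrees of freedom, 14.3 to 65.6). The titles number the replicates without saying what a number marks. Same-numbered WT and hetL1002P libraries deviated together (r = 0.285, 0.36 and 0.516), each above the bound of 0.1 for pairing. Same-numbered pairs with hetX753 ran from -0.279 to 0.164, and only WT 2 with hetX753 2 was above the bound. Differently numbered libraries ran from -0.454 to 0.198 between WT and hetL1002P, and from -0.241 to 0.281 with hetX753. The bound therefore does not single out same-numbered libraries. The alternatives were DESeq2 1.42.0, limma-voom 3.58.1, other scalings and filters, the block, the length and GC trend, and left-out libraries. The members, lists and tests were chosen with earlier results of these data known. The members named are the 8 with the smallest p in each comparison, the 4 highest and 4 lowest per length, the 4 with the widest spread, the S18 genes, Mrps30 and Mrps36; of each list, up to 4 genes with the smallest p. Mitochondrially encoded genes were not analysed here.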

Additional observations from a re-analysis of the deposited data

How the results depend on the processing

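Over all alternatives run, the median of the 77 members stayed below 0 in hetX753 and in hetL1002P against WT. Leaving out single libraries gave medians of -0.39 to -0.15 with 66 to 72 members below 0 and 0 to 1 called for hetX753, and of -0.42 to -0.07 with 60 to 75 below 0 and 0 called for hetL1002P. For hetX753 against hetL1002P they gave -0.19 to 0.10 with 14 to 70 below 0; without hetL1002P 3 the median was 0.10 with 14 below 0, and without both WT 3 and hetL1002P 3 it was also 0.10 with 14 below 0. The 1 member called in hetX753 against WT was Mrpl21 without hetL1002P 3 (-0.48, edgeR adjusted p = 0.048, 5.07% of all genes called) and Mrpl47 without both libraries (1 called, 0.73, adjusted p = 0.037).

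With the replicate number as a block in all 9 libraries, 0 members were called in each comparison, with medians of -0.29, -0.22 and -0.07. The block on WT and hetL1002P alone called 10, with Mrpl23, Mrps16 and Mrpl57 among them (edgeR adjusted p = 0.0331, 0.0331 and 0.046), and 1 without the pair numbered 3. For hetX753 against WT the block on these genotypes alone called 0, but 12 without the pair numbered 1 and 1 without the pair numbered 3. The share of all genes called by these fits is not given here, so the counts cannot be set against it. These pairs share only a number. For hetX753 against hetL1002P without the pair numbered 3, the median under the block was 0.18 with 12 below 0, and Mrps14 was at 0.04. The fits without a pair, and the blocked fit of 2 genotypes with the length and GC trend removed, were added after seeing the data. Of 208 values of named members per comparison, 203 and 205 kept direction and call against WT (5 and 3 came to be called) and 207 between the carriers; the causes were not tested. The members' median had an SD of 0.238 log2 between libraries of a genotype, which is of the size of the shifts seen, and 3 libraries a genotype limit the precision.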
